A study of Homo sapiens with 4 samples.

Results

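The MS4A myeloid gene cluster is a group of 6 genes on human chromosome 11, MS4A4A, MS4A4E, MS4A6A, MS4A6E, MS4A7 and MS4A14. The genes were chosen by name, and all 6 were found among 35585 genes summed from transcripts. They were measured by sequencing messenger RNA of iMGL, cells like microglia that are differentiated in culture from induced pluripotent stem cells, here of the human line WTC11. A pair of WT libraries was compared with a pair from lines edited at SHIP1 (S1KO, genotype KO in the labels), which is the lipid phosphatase that INPP5D encodes. The labels name no other treatment. The design text says that 2 clones stand for each genotype, and the labels do not tie a library to a clone. The p-values therefore measure only the spread between these libraries, which may be technical.

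MS4A proteins cross the membrane several times and sit at the cell surface or in endosomes, often beside other receptors. Better known relatives are MS4A1 (CD20), the B cell antigen, and MS4A2, the beta chain of the IgE receptor of mast cells. The 6 genes described here are expressed mainly in macrophages and microglia, and common variants in this cluster are associated with risk of Alzheimer's disease. MS4A4A lies beside TREM2 at the cell surface and is linked to the amount of TREM2 shed into cerebrospinal fluid.

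In these cells MS4A6A and MS4A7 were the abundant members, and the other 4 were low. MS4A4A, MS4A4E and MS4A6A were each lower in the pair of S1KO libraries than in the WT pair, without overlap, as were 25.8% of all genes. None of the 6 passed the threshold over all genes tested. The size for MS4A4A rested on WT 1, and much of that for MS4A4E lay in 1 transcript. MS4A7, MS4A14 and MS4A6E overlapped between the genotypes. Inside MS4A7 and MS4A14 the mix of transcripts differed, as a description with no test. Of transcripts of well counted genes, 18.1% had shares at least 10 percentage points apart without overlap. MS4A7 transcripts that include a coding exon held a smaller share of its estimated counts in S1KO. MS4A14 estimated counts came more from a transcript that begins in the first exon of MS4A7.

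The cluster spans chr11:60172014-60417756 in GRCh38 (GENCODE 29), a stretch of 246 kb. MS4A6A (60172014 to 60184666) and MS4A4E (60201253 to 60243088) are on the minus strand. MS4A4A (60185702 to 60317944), MS4A6E (60334831 to 60396596), MS4A7 (60378482 to 60395951) and MS4A14 (60378530 to 60417756) are on the plus strand. The annotated span of MS4A4A covers that of MS4A4E on the other strand, with no exonic base in common. MS4A7 and MS4A14 share 135 exonic bases on the same strand, and MS4A6E and MS4A14 share 35.

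**Figure D1:**
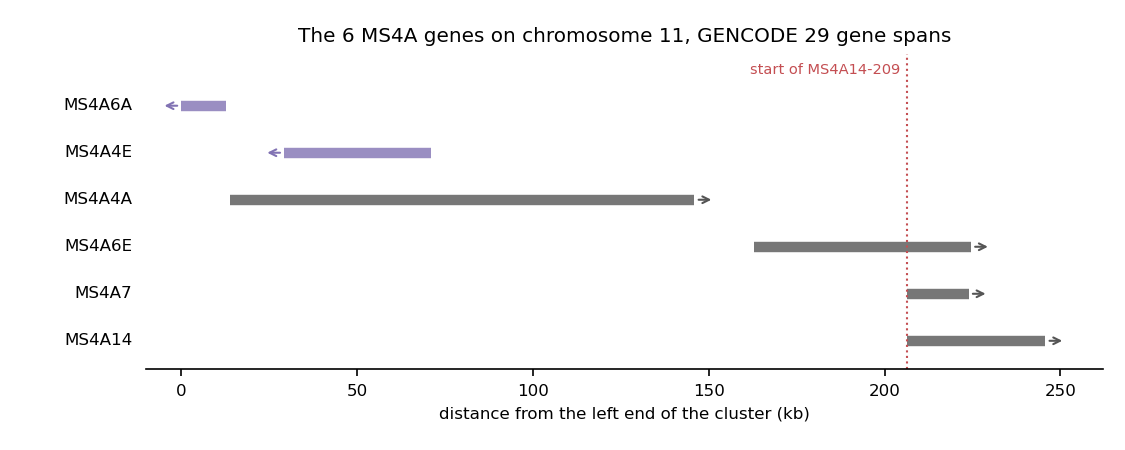
Annotated span of each gene in kb from the left end of the cluster, with arrows for the direction of transcription (purple, minus strand; grey, plus strand). The dotted line marks where the transcript MS4A14-209 starts, at the left end of MS4A7.

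The exon whose share differed lies in the coding part of MS4A7, at chr11:60385088-60385222 on the plus strand. It is exon 3 of the 7 exons of the transcript MS4A7-201, holds 135 bases (45 codons) and is skipped in the 6-exon transcript MS4A7-202, so the coding part is 720 bases long with it and 585 without it. The exon and both splice junctions are printed from the GRCh38 sequence because reads over them would tell the forms apart. Such reads were not counted here. Capitals mark the bases after the junction.
MS4A7 cassette exon: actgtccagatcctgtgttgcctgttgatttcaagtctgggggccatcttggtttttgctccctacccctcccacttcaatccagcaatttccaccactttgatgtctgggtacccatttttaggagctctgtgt
Junction with the exon included: accaccgttcttgggACTGTCCAGATCCTG
Junction with the exon skipped: accaccgttcttgggTTTGGCATTACTGGA

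The start windows of MS4A7 and MS4A14 are printed because estimated counts were assigned to MS4A14 transcripts that begin in each. Reads over their junctions were not counted. Each holds 250 bases before to 50 bases after the start in RefSeq (GRCh38.p14), on the plus strand. The MS4A7 window lies at chr11:60378282-60378581 and also holds the start of MS4A14-209, and the MS4A14 window lies at chr11:60396209-60396508. Capitals mark AGGAAG, the core of sites bound by ETS factors such as PU.1 (SPI1), a lineage factor of myeloid cells.
MS4A7 window: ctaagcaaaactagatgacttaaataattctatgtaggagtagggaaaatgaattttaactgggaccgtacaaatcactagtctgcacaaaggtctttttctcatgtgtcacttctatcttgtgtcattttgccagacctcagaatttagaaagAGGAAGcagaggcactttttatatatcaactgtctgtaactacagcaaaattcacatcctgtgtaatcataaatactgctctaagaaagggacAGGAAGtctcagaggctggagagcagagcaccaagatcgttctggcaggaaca
MS4A14 window: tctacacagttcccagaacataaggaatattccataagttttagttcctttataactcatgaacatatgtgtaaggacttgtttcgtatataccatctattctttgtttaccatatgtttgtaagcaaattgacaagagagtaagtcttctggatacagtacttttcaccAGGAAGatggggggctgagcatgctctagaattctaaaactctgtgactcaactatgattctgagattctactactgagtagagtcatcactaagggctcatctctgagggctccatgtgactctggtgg

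AGGAAG was searched on both strands as the only motif. It occurred 2 times in the window of MS4A7, 2 times in that of MS4A6A and 1 time in that of MS4A14, and was not found in those of MS4A4A and MS4A4E. Of 35116 RefSeq windows of the same length, 33.65% held it. RefSeq windows were matched for 5 of the 6 genes. The MS4A4E window lies at the start of the transcript MS4A4E-207, described below. Other annotated MS4A4E transcripts start at 60230044 to 60230071, outside it. The windows of the neighbours MS4A4A and MS4A4E were 93.0% identical over 171 aligned bases.

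The libraries differed in ways that touch every gene. Total estimated counts were 21516813 to 25927881 per library, but mitochondrially encoded genes took 14.2% and 18.9% of them in WT 1 and WT 2 against 52.3% and 39.2% in S1KO 1 and S1KO 2. Counts on nuclear genes were 18055337 and 20540060 in WT and 9319000 and 12891104 in S1KO. WT 1 also held mesenchymal transcripts: 7 markers (collagens among them, none at 0) summed to 3185 CPM in WT 1, 4.41 in WT 2, 7.90 in S1KO 1 and 19.5 in S1KO 2. All 10 microglia markers were measured, with sums of 2784 and 3059 CPM in WT against 1964 and 2039 in S1KO, where P2RY12, a microglial purine receptor, fell (log2 fold change -1.45 ± 0.22 SE, edgeR adjusted p = 0.0483). The 8 monocyte markers summed to 186 and 177 CPM in WT against 155 and 137 in S1KO. Of these, 6 had a negative log2 fold change, with a median of -0.46, but FCN1 rose (2.8 ± 0.37, edgeR adjusted p = 0.0405). P2RY12 and FCN1, each the only 1 of its list to pass, were named after their values were seen. Over all genes tested, 0.936% passed. INPP5D itself was at 356 and 441 CPM in WT against 81.0 and 97.6 in S1KO (log2 fold change -2.16 ± 0.21 SE, edgeR adjusted p = 0.0184), so the targeted transcript was lower where the labels place the edit. With either S1KO library left out no gene passed the threshold, these 3 included. The part of these differences between libraries in the MS4A values was not tested. In bulk RNA, fewer cells of a type and less RNA per cell cannot be told apart.

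Levels of different genes are compared in TPM, which divides by transcript length. In WT the order was MS4A6A, MS4A7, MS4A14, MS4A4A, MS4A4E and MS4A6E. MS4A6A stood at 480 ± 17 TPM and MS4A7 at 177 ± 84 (SD, n = 2 each), and the 4 others lay between 10.4 and 30.4 TPM in every WT library. Over all transcripts, MS4A6A was above MS4A7 and MS4A7 above the rest in each of the 4 libraries. MS4A14 (21.5 and 30.4 TPM) and MS4A4A (28.5 and 16.6 TPM) overlapped in WT, as did MS4A4E (17.6 and 11.7 TPM) with both MS4A4A and MS4A6E (13.9 and 10.4 TPM). In S1KO, MS4A6A was at 120 and 226 TPM, MS4A7 at 54.9 and 98.5, MS4A14 at 6.59 and 20.7, MS4A4A at 5.40 and 8.02, MS4A6E at 3.72 and 9.15 and MS4A4E at 3.06 and 5.06. Neighbours in that order from MS4A14 down overlapped, and MS4A4E lay below MS4A14 and MS4A4A.

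TPM values of nuclear genes tended to be lower in S1KO, where mitochondrial transcripts took up more of each library. The median log2(TPM + 1) difference over all genes tested was -0.78. The genotypes were compared on counts, given as CPM (counts scaled to an equal library total, after TMM scaling), where the median difference over all genes was -0.02.

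MS4A6A, a marker of macrophages and microglia, was the most abundant member in TPM. Its level was 270 CPM in WT 1, 313 in WT 2, 179 in S1KO 1 and 198 in S1KO 2. The S1KO values were both below the WT values, and those within a genotype were close. The log2 fold change was -0.63 ± 0.18 (SE, 95% interval -1.05 to -0.20), and it did not pass the threshold (edgeR quasi-likelihood test, adjusted p = 0.142). DESeq2 called it (-0.63, adjusted p = 0.0158), as did edgeR without WT 1 (-0.73, adjusted p = 0.0191).

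MS4A4A, the gene tied to shed TREM2, was at 17.1 CPM in WT 1, 11.3 in WT 2, 9.16 in S1KO 1 and 8.75 in S1KO 2. The S1KO libraries were alike and lower, while the WT libraries differed by more than the gap between WT 2 and S1KO. Its log2 fold change was -0.66 ± 0.28 (95% interval -1.33 to 0.01, edgeR adjusted p = 0.261). The size rested on WT 1: it was -0.33 without WT 1 (edgeR adjusted p = 0.554) and -0.93 without WT 2 (edgeR adjusted p = 0.0182). Over protein-coding transcripts only, the difference was -0.42 (edgeR adjusted p = 0.490).

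MS4A4E is the partial copy of MS4A4A on the other strand. It was at 4.06 CPM in WT 1, 4.12 in WT 2, 1.42 in S1KO 1 and 1.29 in S1KO 2, from 113.5, 128.9, 21 and 27.5 estimated counts. In CPM the libraries of each genotype were close and the genotypes apart, but in TPM the WT libraries were at 17.6 and 11.7. Within WT, the transcript MS4A4E-207 described next was at 1.46 and 2.38 CPM and the rest of the gene at 2.60 and 1.74. The log2 fold change of -1.61 ± 0.40 (95% interval -2.56 to -0.66) was the largest of the 6 and did not pass the threshold (edgeR adjusted p = 0.109). DESeq2 called it (-1.62, adjusted p = 0.0403), as did edgeR without WT 1 (-1.62, adjusted p = 0.0341) and without WT 2 (-1.60, adjusted p = 0.0461).

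Much of the MS4A4E difference lay in 1 transcript. MS4A4E-207, annotated as a target of nonsense-mediated decay (a form with an early stop that cells tend to degrade), had 40.7 and 74.4 estimated counts in WT and 0 in both S1KO libraries. At a floor of 3 counts per S1KO library it was 10.6-fold lower in S1KO, a value that leaves out error in dividing reads among transcripts. Of its 31-base words, the unit by which kallisto assigns reads, 28.3% also occur in transcripts of other genes. Without this transcript MS4A4E was at 2.60 and 1.74 CPM in WT against 1.42 and 1.29 in S1KO, a log2 fold change of -0.69 (edgeR adjusted p = 0.472), an alternative chosen after seeing the data. With an offset for effective length the gene stood at -0.91 (edgeR adjusted p = 0.326), and over protein-coding transcripts at -0.89 (edgeR adjusted p = 0.446).

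MS4A7, a gene of macrophages and of microglia in culture, was at 186 CPM in WT 1, 419 in WT 2, 235 in S1KO 1 and 258 in S1KO 2. The WT libraries lay on either side of both S1KO libraries, 2.26-fold apart. The log2 fold change of -0.29 ± 0.37 (95% interval -1.17 to 0.59, edgeR adjusted p = 0.703) was within that spread. It was -0.76 without WT 1 (edgeR adjusted p = 0.018) and 0.41 without WT 2 (edgeR adjusted p = 0.304), so its direction depended on which WT library was kept.

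MS4A14, the last gene of the cluster, was at 31.4 CPM in WT 1, 54.1 in WT 2, 27.2 in S1KO 1 and 52.9 in S1KO 2. Each genotype had a low and a high library, and the ranges overlapped. Its log2 fold change was -0.09 ± 0.38 (95% interval -1.0 to 0.82, edgeR adjusted p = 0.919), and it ran from -0.66 to 0.36 when single libraries were left out.

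MS4A6E, the partial copy of MS4A6A, was the lowest member in WT in TPM. It was at 2.32 CPM in WT 1, 2.04 in WT 2, 1.82 in S1KO 1 and 2.59 in S1KO 2, and the S1KO libraries lay on either side of WT. The log2 fold change was 0.02 ± 0.43 (95% interval -1.02 to 1.06, edgeR adjusted p = 0.986). The count lay in transcripts annotated for nonsense-mediated decay, mainly MS4A6E-202, and the protein-coding MS4A6E-201 had a count of 0 in all 4 libraries. By counting error alone, a count of 0 allows up to 3 counts, which is 0.0925 to 0.211 CPM in the transcript fit.

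**Figure D2:**
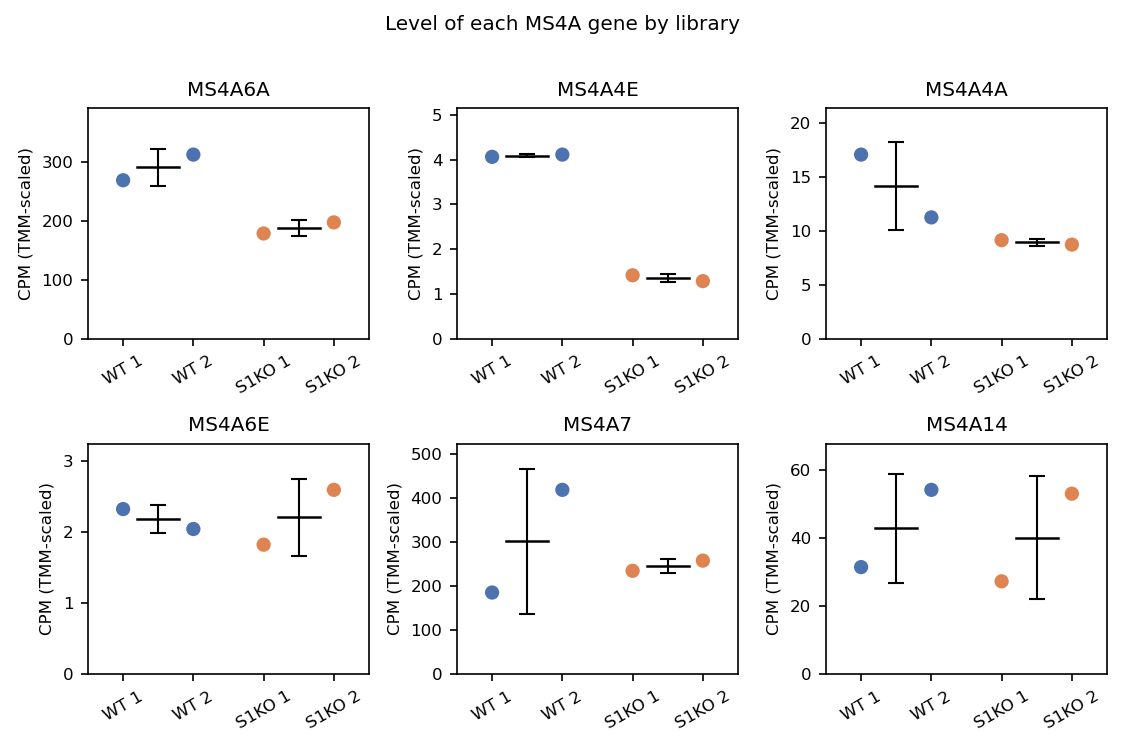
TMM-scaled CPM of each gene in the 4 libraries (blue, WT; orange, S1KO), with the mean and SD of each genotype (n = 2). MS4A6A, MS4A4E and MS4A4A show S1KO below WT without overlap, and the other 3 overlap.

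All 6 genes passed the filter on low counts. Of the 6, 0 passed the edgeR threshold, against 0.936% of the 15378 genes tested (0.150% lower, 0.787% higher). At an unadjusted p under 0.05, 2 of 6 were lower (MS4A4E and MS4A6A), against 9.21% of all genes. In 3 of 6 the S1KO values were both below the WT values, against 25.8% of all genes. The median log2 fold change of the 6 was -0.46, with 5 of 6 negative. DESeq2 called 2 members lower, against 3.42% of genes. Without WT 1, edgeR called 3 lower (MS4A4E, MS4A6A and MS4A7), against 6.95% of genes. Without WT 2 it called 2 (MS4A4A and MS4A4E), against 6.67%. On log2(TPM + 1), limma called 3 lower (MS4A4A, MS4A4E and MS4A6A), against 17.9% of genes, and on TPM rescaled without mitochondrial genes it called 0 of 6 (2 at an unadjusted p under 0.05).

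**Figure D3:**
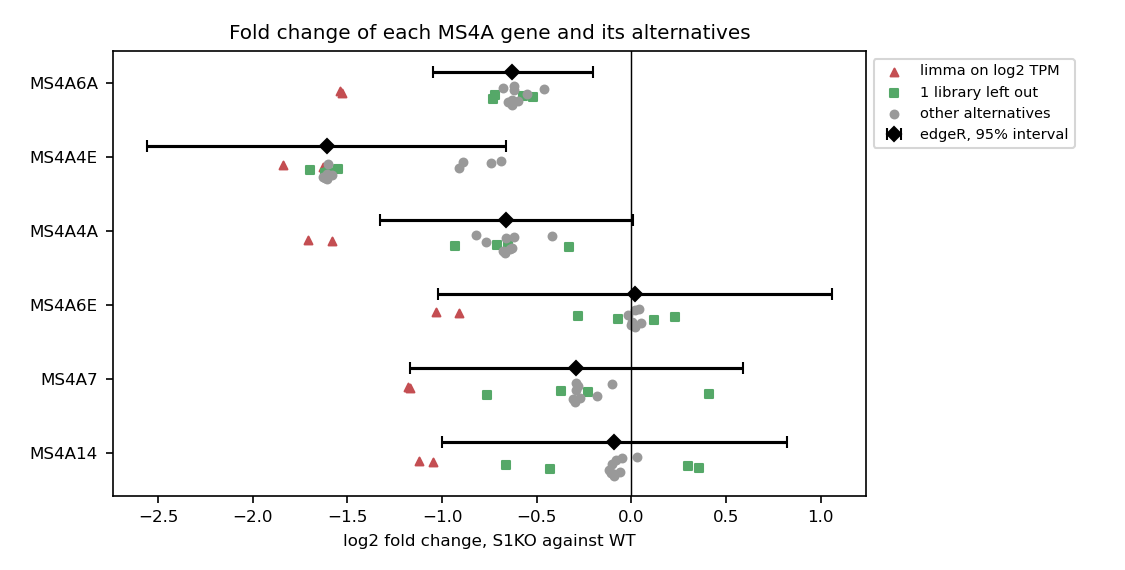
Log2 fold change of each gene, S1KO against WT. Black diamonds are edgeR values with 95% intervals (n = 2 libraries per genotype), green squares leave out 1 library, red triangles use limma on log2 TPM and grey circles are the other alternatives. MS4A4A, MS4A4E and MS4A6A stay below 0 in all points shown, and MS4A7 and MS4A14 move to either side of 0 when a WT library is left out.

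Paralogs can exchange reads, so the overlap of their 31-base words was counted. MS4A4E shares 18.3% of its words with other genes (8.82% with FAM122C), while MS4A4A shares 1.75% of its words with MS4A4E. MS4A6E shares 14.8% of its words with MS4A6A, and MS4A6A 2.58% with MS4A6E. Added as 1 gene, MS4A4A and MS4A4E stood at -0.82 (edgeR adjusted p = 0.153) and MS4A6A and MS4A6E at -0.62 (edgeR adjusted p = 0.144). MS4A7 and MS4A14 share 2.34% and 2.55% of their words with each other.

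The shares of MS4A6A and MS4A7 in the cluster differed most in WT 1. MS4A6A held 70.1% of the summed TPM of the 6 genes in WT 1, 61.7% in WT 2, 62.1% in S1KO 1 and 61.5% in S1KO 2. MS4A7 held 17.6%, 29.6%, 28.3% and 26.8% in the same order. For these 2 genes WT 2 and both S1KO libraries were alike, and WT 1, the library with mesenchymal transcripts, stood apart. MS4A14 instead set S1KO 2 apart, holding 3.22%, 3.82%, 3.40% and 5.65% in the same order. The part of the mesenchymal transcripts in these shares was not tested.

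Transcript usage was described as a share of a gene's estimated counts. Of 62 annotated transcripts of the 6 genes, 55 had a count above 0. With 2 libraries per genotype an exact permutation test cannot give a p under 0.333, so the shares have no test, and their Wilson intervals cover counting error only, not the division of reads among transcripts. Over 32525 transcripts of well counted genes, the share was lower in both S1KO libraries for 24.7% and higher for 24.3%, and in 18.1% the groups did not overlap and lay at least 10 percentage points apart. Of 14 transcripts of the cluster in that set, 7 were lower, 4 were higher and 4 were at least 10 points apart without overlap.

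In MS4A7 the cassette exon printed above was included in 29.9% of the counts that include or skip it in WT 1 (95% Wilson interval 28.6 to 31.2) and in 21.7% in WT 2 (20.98 to 22.4). In S1KO 1 it was included in 11.5% (10.5 to 12.6) and in S1KO 2 in 9.81% (9.04 to 10.6). The S1KO libraries were close to each other and below both WT libraries, which differed from each other by more than their intervals. MS4A7-201, the form with the exon, had 54.0 and 85.7 CPM in WT against 27.8 and 25.1 in S1KO. MS4A7-202, the form without it, had 125 and 306 CPM in WT against 208 and 228 in S1KO. The log2 fold change was -1.40 ± 0.30 for MS4A7-201 (95% interval -2.20 to -0.60, edgeR transcript adjusted p = 0.243) and 0.02 ± 0.46 for MS4A7-202 (edgeR adjusted p = 0.992). Neither form passed the threshold. Junction reads were not counted, so these shares follow how kallisto divided reads among whole transcripts. Of 31-base words in GENCODE 29 sequences, 1.79% of those of MS4A7-201 are unique to it within the gene, against 30.3% for MS4A7-202. These forms also end at different bases in GENCODE 29 (60394811 and 60395951), so the division need not rest on the exon. The files list MS4A7-201 at 2956 bases and GENCODE 29 at 1869. The exons, ends and words given here thus come from an annotation that may differ from the one the authors used. In the sequences that kallisto used, the unique words of both forms and the end of MS4A7-201 may be others.

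In MS4A14 the transcript MS4A14-209 begins in the first exon of MS4A7, with 135 bases that all lie in the first exon of MS4A7-202, and joins its next exon 24247 bases downstream. It held 53.3% of MS4A14 counts in WT 1 (95% Wilson interval 50.05 to 56.6), 57.5% in WT 2 (55.1 to 59.8), 71.7% in S1KO 1 (67.2 to 76.0) and 76.0% in S1KO 2 (73.4 to 78.3). Its share was higher in both S1KO libraries, by 18.4 percentage points between the means. In CPM it stood at 16.7 and 30.0 in WT and 20.4 and 40.5 in S1KO, which overlap (log2 fold change 0.38 ± 0.48, edgeR transcript adjusted p = 0.777). MS4A14-201, which begins at the gene's own window, held 30.3% and 22.6% in WT and 17.2% and 13.8% in S1KO. It was at 9.51 and 11.8 CPM in WT against 4.88 and 7.34 in S1KO (-0.80 ± 0.37, edgeR transcript adjusted p = 0.434). MS4A14-204, annotated for nonsense-mediated decay, had 37.8 and 159 estimated counts in WT and 0 in both S1KO libraries. At a floor of 3 counts per library it was 17.7-fold lower. This leaves out error in WT and in dividing reads among transcripts, so it is not a lower bound. The value of 17.7-fold rested on WT 2, since WT 1 alone gives 7.65-fold and WT 2 alone 27.8-fold. None of the 31-base words of MS4A14-201 or MS4A14-204 is unique to it within the gene, against 5.35% of those of MS4A14-209. Of the words of MS4A14-209, however, 4.19% also occur in other genes, and MS4A14 shares 105 words with the more abundant MS4A7. The share of MS4A14-209 thus depends on how reads were divided between these genes, which was not tested.

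**Figure D4:**
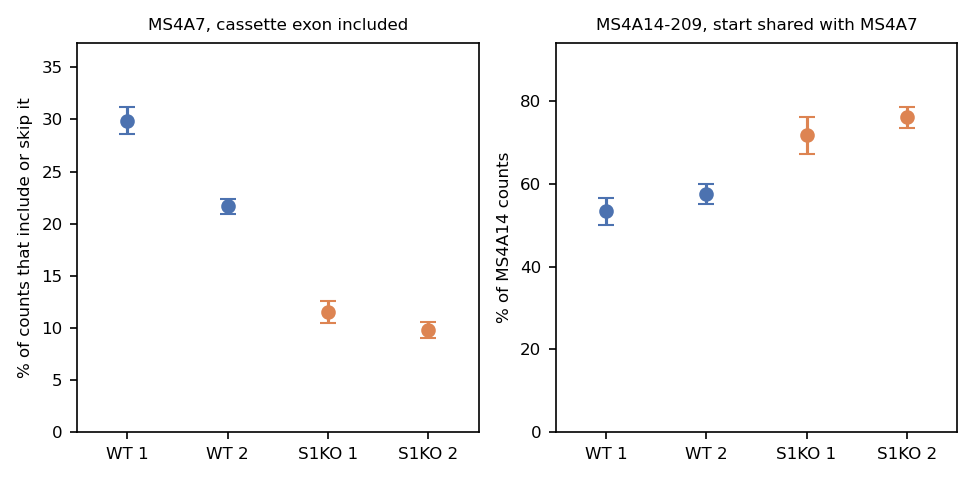
Left, share of MS4A7 estimated counts in transcripts that include the cassette exon, among transcripts that include or skip it. Right, share of MS4A14 counts in MS4A14-209, with 95% Wilson intervals in both. S1KO libraries are lower on the left (11.5% and 9.81%) and higher on the right (71.7% and 76.0%) than both WT libraries.

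In MS4A6A the mix differed by at most 3.28 percentage points between the means for any transcript. Of its 4 named transcripts 3 did not overlap, where 24.7% of all transcripts compared were lower and 24.3% higher without overlap. The protein-coding MS4A6A-208 held 56.8% and 54.8% of its counts in WT and 53.8% and 53.8% in S1KO, and fell short of the threshold (log2 fold change -0.62 ± 0.18, edgeR transcript adjusted p = 0.276). MS4A6A-215, a short transcript that retains an intron, held 19.8% and 24.1% in WT and 24.6% and 25.9% in S1KO. The protein-coding MS4A6A-213 held 7.46% and 5.45% in WT and 3.5% and 5.21% in S1KO. As MS4A6A-215 is only 640 bases long, it held 42.8% to 51.0% of the gene's TPM, so MS4A6A levels in TPM rest in large part on it. Counted over protein-coding transcripts alone, MS4A6A was at 193 and 194 TPM in WT and 47.3 and 83.0 in S1KO, and MS4A7 at 102 and 206 in WT and 50.7 and 88.5 in S1KO. MS4A7 was then above MS4A6A in WT 2 and both S1KO libraries, against the order over all transcripts, and below it in WT 1.

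In MS4A4A the main protein-coding form MS4A4A-201 held 60.7% and 67.9% of counts in WT and 75.9% and 72.4% in S1KO. MS4A4A-205, which retains an intron, held 23.3% and 23.4% in WT and 20.4% and 10.9% in S1KO, from at most 111.4 estimated counts in a library. MS4A4E shares came from 21 to 128.9 counts in all, so their values move with a few reads: MS4A4E-207 held 35.8% and 57.8% in WT and none in S1KO, and MS4A4E-204 held 8.42% and 4.32% in WT and 60.05% and 27.2% in S1KO. In counts MS4A4E-204 had 9.6 and 5.6 in WT and 12.6 and 7.5 in S1KO. Of 33 transcripts of the cluster that were tested, 0 passed the edgeR threshold, against 0.00% of all 54438 transcripts, and 8 of 33 were lower at an unadjusted p under 0.05, against 6.95% of all transcripts.

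**Figure D5:**
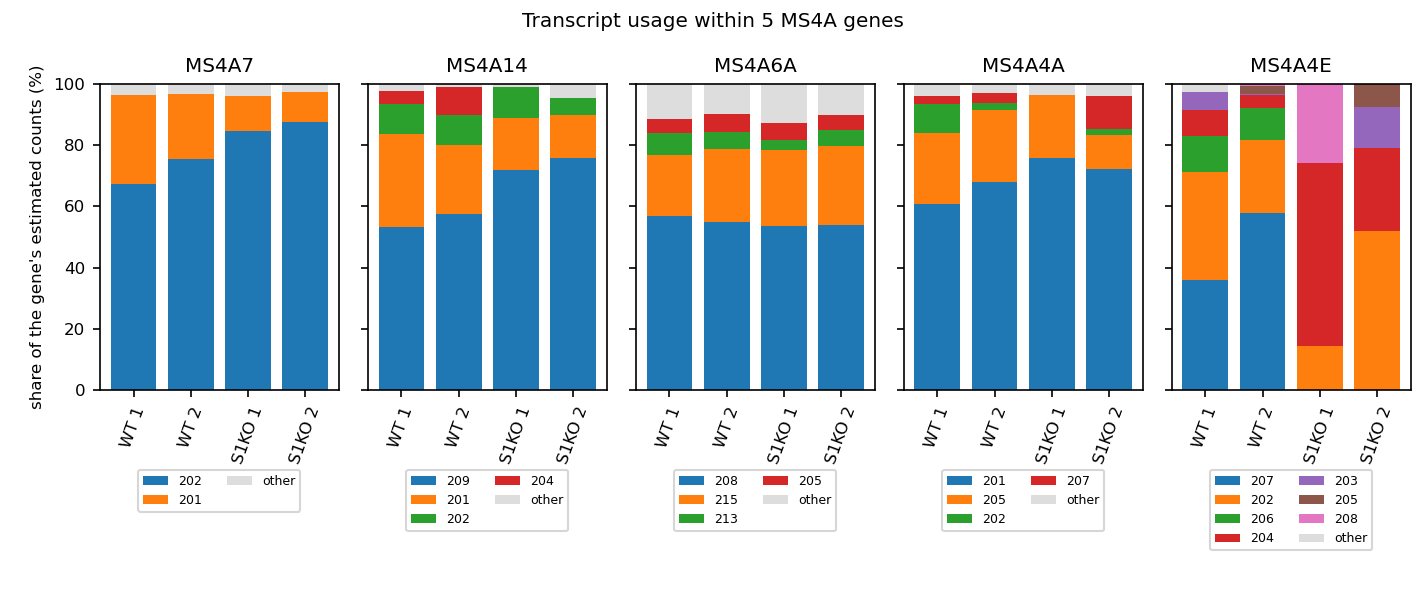
Share of each gene's estimated counts held by its named transcripts (those with at least 5% in any library) in the 4 libraries; numbers in the keys are transcript suffixes, and grey is the rest. MS4A4E-207 (46.8% on average in WT, 0% in S1KO) and MS4A4E-204 (6.37% and 43.6%) differ most between genotypes, from few counts. MS4A7-201 (25.1% on average in WT, 10.5% in S1KO) and MS4A14-209 (55.4% and 73.9%) differ less. Differences in the MS4A6A bars are at most 3.28 percentage points.

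The other MS4A genes were nearly silent. Of 12 relatives on the list, 6 had a count of 0 in every library (MS4A1, MS4A3, MS4A8, MS4A12, MS4A13 and MS4A18). MS4A5 had 4.44 estimated counts in S1KO 1 and 0 elsewhere, and MS4A15 had 1 count in each WT library and 0 in S1KO. MS4A2, the IgE receptor chain, was at 0.369 and 1.38 CPM in WT against 0.771 and 0.879 in S1KO, and MS4A10 at 0.536 and 0.345 in WT and 0.672 and 0.723 in S1KO. The related membrane genes TMEM176A and TMEM176B were expressed, at 16.7 to 35.2 and 36.9 to 62.7 CPM. Their log2 fold changes were 0.50 ± 0.28 and 0.35 ± 0.23 (edgeR adjusted p = 0.383 and 0.458), and on log2(TPM + 1), where all genes had a median of -0.78, they stood at -0.42 and -0.64. On TPM rescaled without mitochondrial genes they stood at 0.64 and 0.43. Markers of B cells summed to 1.35 to 1.99 CPM per library, those of mast cells and basophils to 1.75 to 9.71 and those of granulocyte progenitors to 0.64 to 0.89. None of the 4 relatives that could be tested (MS4A2, MS4A10, TMEM176A and TMEM176B) passed the threshold, against 0.936% of all genes.

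TREM2 and the proteins that signal from it or shed it were examined because MS4A4A acts beside TREM2. None of 14 genes passed the threshold in edgeR, against 0.936% of all genes. DESeq2 called 6 of them lower (TREM2, TYROBP, CLEC7A, ADAM10, NCSTN and PSENEN), against 3.42% of genes. In 10 of 14 the S1KO values were both below the WT values, against 25.8% of all genes, and the median log2 fold change was -0.60 against -0.02 over all genes. TREM2, a lipid-sensing receptor of microglia, was at 234 and 304 CPM in WT against 101 and 132 in S1KO (-1.21 ± 0.22, edgeR adjusted p = 0.0691; DESeq2 adjusted p = 2.4e-05). It passed in 6 of 15 alternatives. CLEC7A, a receptor for fungal glucans, was at 114 CPM in WT 1, 174 in WT 2, 66.8 in S1KO 1 and 77.1 in S1KO 2 (edgeR adjusted p = 0.103). The values of ADAM10, the protease that sheds TREM2, were 47.9 and 52.6 CPM in WT against 31.9 and 32.7 in S1KO (-0.64 ± 0.16, edgeR adjusted p = 0.12), and PSENEN, a gamma-secretase subunit, was at -0.78 ± 0.20 (edgeR adjusted p = 0.116).

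Genes that mark tissue and border macrophages, which also express MS4A4A and MS4A7, were not lower as a list. Of 15 tested, 0 passed, against 0.936% of all genes. The median was 0.17, and 7 of the 15 had a negative log2 fold change. In both S1KO libraries 0 were below (25.8% of all genes) and 4 above (26.0% of all genes), the latter a share near that of all genes. Those 4 were CD163, the haemoglobin scavenger receptor (0.95 ± 0.35, edgeR adjusted p = 0.217), SELENOP, a selenium carrier (1.60 ± 0.56, edgeR adjusted p = 0.204; DESeq2 adjusted p = 0.0364), COLEC12, a scavenger receptor (1.17 ± 0.34, edgeR adjusted p = 0.151), and MRC1, the mannose receptor (1.03 ± 0.42, edgeR adjusted p = 0.253). SELENOP was at 14.7 CPM in WT 1, 5.15 in WT 2, 41.3 in S1KO 1 and 18.7 in S1KO 2, and its log2 fold change ran from 0.90 without S1KO 1 to 2.54 without WT 1. CD163 was at 0.35 without S1KO 1.

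IL-4 and glucocorticoids raise MS4A4A in macrophages, so genes induced by either were listed. Of 7 IL-4 and STAT6 genes tested, 0 passed, against 0.936% of all genes, with a median of 0.29. CCL22, a chemokine, was at 6.94 CPM in WT 1, 54.4 in WT 2, 47.6 in S1KO 1 and 44.6 in S1KO 2, so only WT 1 stood apart, and its log2 fold change was 0.59 with all libraries, -0.24 without WT 1 and 2.73 without WT 2. Of 12 glucocorticoid genes 0 passed, 6 were below in both S1KO libraries (25.8% of all genes were) and the median was -1.09, but FKBP5, a chaperone induced by glucocorticoids, was above (1.27 ± 0.32, edgeR adjusted p = 0.11; DESeq2 adjusted p = 0.0092). DUSP1, a phosphatase of MAP kinases, was at 186 CPM in WT 1 and 661 in WT 2 against 150 and 171 in S1KO (-1.40 ± 0.53, edgeR adjusted p = 0.227). Its size rested on WT 2, with a log2 fold change of -0.21 without WT 2 and -2.04 without WT 1.

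Among 15 myeloid transcription factors 0 passed, against 0.936% of all genes, and the median was -0.27. In both S1KO libraries 8 were below (25.8% of all genes) and 4 above (26.0% of all genes). NR1H3, the sterol sensor LXR alpha, stood at 1.91 ± 0.37 (edgeR adjusted p = 0.0798), and at 1.47 without WT 1 and 2.56 without WT 2. CEBPB, a regulator of myeloid genes, was at 100 CPM in WT 1 and 238 in WT 2 against 72.1 and 74.3 in S1KO (-1.21 ± 0.38, edgeR adjusted p = 0.173). Its size rested on WT 2, with -0.45 without WT 2 and -1.70 without WT 1. RUNX1, another such regulator, was at -0.61 ± 0.21 (edgeR adjusted p = 0.204). DESeq2 called NR1H3 (adjusted p = 6.9e-05) and CEBPB (adjusted p = 0.0186). Of 18 genes at Alzheimer loci only INPP5D, the edited gene, passed, and the median was -0.11. CD33, a sialic acid receptor of microglia, was at 66.3 and 39.0 CPM in WT against 24.3 and 31.9 in S1KO (-0.90 ± 0.29, edgeR adjusted p = 0.177). ABCA7, a lipid transporter, was at 0.71 ± 0.20 (edgeR adjusted p = 0.137; DESeq2 adjusted p = 0.0046), at -0.04 on log2(TPM + 1), where the median of all genes was -0.78, and at 1.03 on TPM rescaled without mitochondrial genes.

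Genes within 1 Mb of the cluster were set beside it. Of 39 protein-coding neighbours 25 were tested and 0 passed, against 0.936% of all genes. There were 7 of 25 below (25.8% of all genes) and 7 above (26.0% of all genes) in both S1KO libraries, shares near those of all genes, and the median was -0.09. DESeq2 called 1 of the 25 lower (TMEM109) and 1 higher (DDB1), against 505 and 652 of 14781 genes. TMEM109, a nuclear membrane protein, was at 41.8 and 31.7 CPM in WT against 18.5 and 20.1 in S1KO (-0.93 ± 0.21, edgeR adjusted p = 0.0956), while TMEM138, a protein of cilia, was at 39.6 and 36.7 in WT and 57.3 and 54.3 in S1KO (0.55 ± 0.16, edgeR adjusted p = 0.153). TMEM138 was at -0.22 on log2(TPM + 1), where all genes had a median of -0.78, and at 0.85 on TPM rescaled without mitochondrial genes.

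The protein-coding genes whose pattern over the 4 libraries was most like each member were ranked by the root mean square distance of log2(CPM + 0.1) after centring. For MS4A6A they were MTMR4, SCMH1 and PRRG1, at distances of 0.015 to 0.023, and 238 genes lay within 0.1. For MS4A4A they were SHC1, ANKRD13B and HYOU1 (0.022 to 0.030, 62 genes within 0.1), and for MS4A4E CDRT15, AL133352.1 and EGFL7 (0.079 to 0.099, 3 genes within 0.1). For MS4A7 they were AMPD2, SLC4A11 and SPDYE6 (0.036 to 0.043, 24 genes within 0.1), for MS4A14 AIFM3, FSIP2 and PRSS27 (0.048 to 0.081, 5 genes within 0.1), and for MS4A6E NBEAL2, CFAP44 and ZNF43 (0.019 to 0.029, 156 genes within 0.1). No member of the cluster was among the nearest genes of another. With 4 libraries of 2 genotypes such likeness is a description only.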

How the data were processed

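Poly-A RNA of 4 libraries was read in pairs, per the labels' protocols, and quantified with kallisto (build hg38), per the submitters' processing notes. Neither a release of that tool nor its set of transcripts was found in the labels or headers used here. Per the file headers, the authors deposited for each transcript an estimated count, which need not be whole, and a TPM value; the length and effective length are deposited beside them. Transcripts were summed to 35585 genes with GENCODE 29 (169797 by identifier, 15521 by symbol, 3435 unnamed and left out, 0.323% to 0.643% of counts). MS4A4A-201 and MS4A7-201 have other lengths in the files than in GENCODE 29.

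Groups came from the labels. Gene sums were rounded and tested with edgeR 4.0.16 in R 4.3.3 (filterByExpr, TMM, glmQLFit and glmQLFTest, two-sided) on all 4 libraries with genotype as the only term, with Benjamini-Hochberg adjustment over 15378 genes at 0.05. TMM factors were 1.31, 1.22, 0.654 and 0.957 in WT 1, WT 2, S1KO 1 and S1KO 2. CPM have no prior count, and SE and 95% intervals are those the test statistic implies. Transcripts were tested the same way, so the error of dividing reads among transcripts is not in their p-values. On simulated data for the comparison of 15378 genes, the test called 18% of the 2-fold and 83% of the 4-fold changes made, and for 54438 transcripts 1% and 12%. Alternatives were DESeq2 1.42.0, its size factors, other filters, a replicate block, each library left out, an effective length offset, limma 3.58.1 on log2(TPM + 1) and log2(TPM + 0.1), mitochondrial genes left out, protein-coding transcripts only and paralogs added together; 2 more (MS4A4E without MS4A4E-207, and the block in the transcript fit) were added after seeing the data. The members and gene lists were chosen with earlier results of these data known. Named genes are the 6 members, their relatives, INPP5D, up to 4 genes of smallest p and any called from each list, the 3 genes of nearest pattern to each member (mean TPM of at least 1) and transcripts with at least 5% of a member's counts in any library. Not all are printed, and 1 gene that the rule names is not reported here. Protein sequences were not used here.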

Additional observations from a re-analysis of the deposited data

How the results depend on the processing

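The genes called numbered 144 in edgeR (84.0% of them higher) and 1157 with DESeq2 (56.4% higher), 1362 with no filter (43.0%), 223 with a stricter filter (78.0%), 2893 with limma on log2(TPM + 1) (4.60%), 2638 on log2(TPM + 0.1) (4.55%), 298 on TPM rescaled without mitochondrial genes (90.6%) and 21 over protein-coding transcripts (85.7%). Leaving out a library gave 0 to 2069 calls: 2069 without WT 1 (48.3% higher), 2041 without WT 2 (49.8%) and 0 without either S1KO library (1365 and 1845 genes at an unadjusted p under 0.05). The median of all genes was -0.78 on log2(TPM + 1) and -0.97 on log2(TPM + 0.1), where the median of the 6 MS4A genes was -1.35 and -1.36. MS4A genes called numbered 0 in edgeR, 2 with DESeq2, 3 on log2(TPM + 1) and log2(TPM + 0.1), 0 on TPM rescaled without mitochondrial genes (MS4A4A at -0.62, MS4A4E at -0.74 and MS4A6A at -0.46, with all genes at a median of 0.06) and 0 to 3 when a library was left out. On log2(TPM + 1) and log2(TPM + 0.1), MS4A4A stood at -1.58 and -1.71, MS4A4E at -1.63 and -1.84 and MS4A6A at -1.53 and -1.54, all called, against 17.9% of genes called lower on log2(TPM + 1). DESeq2 called MS4A4E (-1.62) and MS4A6A (-0.63). With a library left out, MS4A4A ran from -0.93 to -0.33, MS4A4E from -1.70 to -1.55, MS4A6A from -0.73 to -0.52, MS4A7 from -0.76 to 0.41, MS4A14 from -0.66 to 0.36 and MS4A6E from -0.28 to 0.23; the library that stands alone is then assumed to vary like the other genotype. MS4A4A, MS4A4E and MS4A6A were negative in all alternatives run. MS4A14 was at 0.03 over protein-coding transcripts. MS4A6E was at -0.0021 with no filter, -0.02 with the length offset, -0.91 on log2(TPM + 1) and -1.03 on log2(TPM + 0.1). On the same 2 TPM scales ABCA7 was at -0.04 and -0.04, MS4A10 at -0.06 and -0.19, TMEM138 at -0.22 and -0.22, TMEM176A at -0.42 and -0.43 and TMEM176B at -0.64 and -0.65; TMEM176A was at -0.10 over protein-coding transcripts. With a library left out MS4A2 ran from -0.74 to 1.19 and CCL22 from -0.24 (without WT 1) to 2.73. Same-numbered libraries did not deviate together (correlation 0.023 over 15378 genes), so the numbers were not taken as pairs; with the replicate block 0 genes were called (2892 at an unadjusted p under 0.05), 0 MS4A genes and 0 transcripts, INPP5D was at an edgeR adjusted p of 0.0504 and MS4A2 at a log2 fold change of 0.12. The cause of these differences was not tested. Depth limits the low members: 3 counts are 0.0958 to 0.202 CPM for genes. On simulated data changes of 2-fold were mostly missed, and these were not drawn from low genes alone.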
